A study of Mus musculus with 4 samples.

Results

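The 43 genes described here are the immediate-early genes and the genes of feedback signalling that follow them, chosen by name from a fixed list of symbols. Each was read from a table of mouse embryonic fibroblast (MEF) libraries by its RefSeq transcript, and where a symbol had several transcript entries the entry with the highest mean level was used. All 43 were found among 23005 genes and unnamed entries, 37 of them among the 14386 that reached 1 RPKM in at least 1 library. RPKM is the number of reads scaled to the length of the transcript and to the total of the library, so levels can be compared between genes.

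There were 4 libraries. Wild-type MEFs (Mll1+/+) and MEFs labelled Mll1-/- were grown in medium with serum and received either control solution or TNF, an inflammatory cytokine, at 10 ng/ml for 4 hr. The dose is that of the series' design text, since the treatment protocol states its number in a different unit. Each treatment was done 3 times and the cells were mixed, which leaves 1 library in each of the 4 groups, no spread between replicates and no test between conditions. The sources used here do not say which part of the gene was deleted, or how many embryos or lines the cells came from. Mll1, now named Kmt2a, is a methyltransferase of histone H3 lysine 4. Its transcript was at 1.85 RPKM in the wild-type control, 2.11 in wild type with TNF, 2.02 in the control labelled Mll1-/- and 1.66 in the library labelled Mll1-/- with TNF. The level of the transcript does not separate the libraries by their genotype label, so every genotype comparison here rests on the label alone.

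Immediate-early genes are transcribed within minutes of a stimulus, without new protein synthesis, and many of their mRNAs are short-lived. They encode transcription factors of the AP-1, Egr, Kruppel-like and Nr4a families, which act on later genes. The feedback members limit the signal: Dusp phosphatases switch off MAP kinases, Sprouty proteins act on the Ras pathway, and Zfp36 proteins speed the decay of mRNAs with AU-rich elements. TNF activates NF-kB and the JNK and p38 MAP kinases in fibroblasts, and NF-kB has feedback targets of its own.

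The libraries held between 19306506 and 27977248 reads, recovered from the steps in the RPKM values. Fibroblast markers summed to between 4129 and 5520 RPKM over 9 genes in the table, the 4 endothelial markers stayed under 1 RPKM everywhere, and of 4 blood-cell and 4 epithelial markers in the table only Cd14 and Krt19 reached 1 RPKM. Cd14 was higher in wild type (23.2 and 25.6 RPKM against 9.28 and 11.9), as was Krt19 (52.6 and 41.5 against 24.2 and 21.2), and of the 9 fibroblast markers 5 were past a 2-fold difference upward in the cells labelled Mll1-/- without TNF and 1 downward. Over all genes that reached 1 RPKM in a library the shares were 7.11% and 7.99%. The collagen gene Col3a1 (log2 4.79) and the proteoglycan gene Dcn (4.27, listed at 0 in both wild-type libraries) were highest, and S100a4 (-1.14) and Vim (-0.15), which make up most of the marker sum, were lowest. Col3a1, Dcn and the receptor gene Pdgfra reached 1 RPKM only in the libraries labelled Mll1-/- and could be counted upward alone. The part of the cell type markers in the genotype differences of the members was not tested. In such bulk RNA, fewer cells of a type and less RNA per cell cannot be told apart. Short transcripts also had higher TNF ratios in the cells labelled Mll1-/-: the median log2 ratio was 0.32 in the shortest decile of transcripts and -0.20 in the longest, against -0.01 and 0.03 in wild type. Between genotypes without TNF these medians were -0.53 and 0.26.

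The genes best known for the first minutes of a response were low in all 4 libraries, while other members of the same families were abundant. Fos, whose product pairs with Jun proteins to form AP-1, was covered by 21 reads in the wild-type control, 17 in wild type with TNF, 7 in the control labelled Mll1-/- and 3 with TNF, or 0.359, 0.288, 0.165 and 0.0737 RPKM. Fosb, a related AP-1 subunit, had 7, 2, 7 and 3 reads in the same order. The nuclear receptor gene Nr4a3 had 12, 6, 9 and 9, and Dusp2, a nuclear phosphatase of MAP kinases, had 15, 12, 6 and 5. Together with Egr2 and Egr3 these are the 6 members that stayed under 1 RPKM everywhere, and at such depth the counting intervals of their TNF ratios were wide. The narrowest was that of Egr2 in the cells labelled Mll1-/- (0.611 to 1.36), and in wild type the interval of Egr2 was 0.7801 to 8.62.

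The highest levels belonged to the secreted matricellular genes Ccn1 (Cyr61) and Ccn2 (Ctgf), to the AP-1 subunit Fosl1 (Fra-1), to the zinc finger factor Klf6 and to the mRNA decay factor Zfp36l2. Ccn2 stood at 136 RPKM without and 107 with TNF in wild type, and 107 without and 115 with TNF in the cells labelled Mll1-/-. Fosl1 was at 57.6 RPKM without and 73.9 with TNF in wild type, and 56.9 without and 77.9 with TNF in the cells labelled Mll1-/-. Klf6 (51.6, 56.02, 48.1 and 45.03 RPKM, libraries in the same order) and Zfp36l2 (46.1, 46.4, 51.8 and 53.2) stayed within a narrow range. Myc, a growth-promoting transcription factor, ranged only from 23.9 RPKM in the control labelled Mll1-/- to 30.2 in wild type with TNF. The median of the 43 members was 10.1 RPKM in wild type without TNF, 10.83 with TNF, and 10.49 and 13.2 in the pair labelled Mll1-/-. Over all genes that reached 1 RPKM in a library the medians were 11.2 to 11.3. The members' medians include the 6 genes that did not reach 1 RPKM, so they are not on an equal footing and do not place the members above or below all genes.

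**Figure D1:**
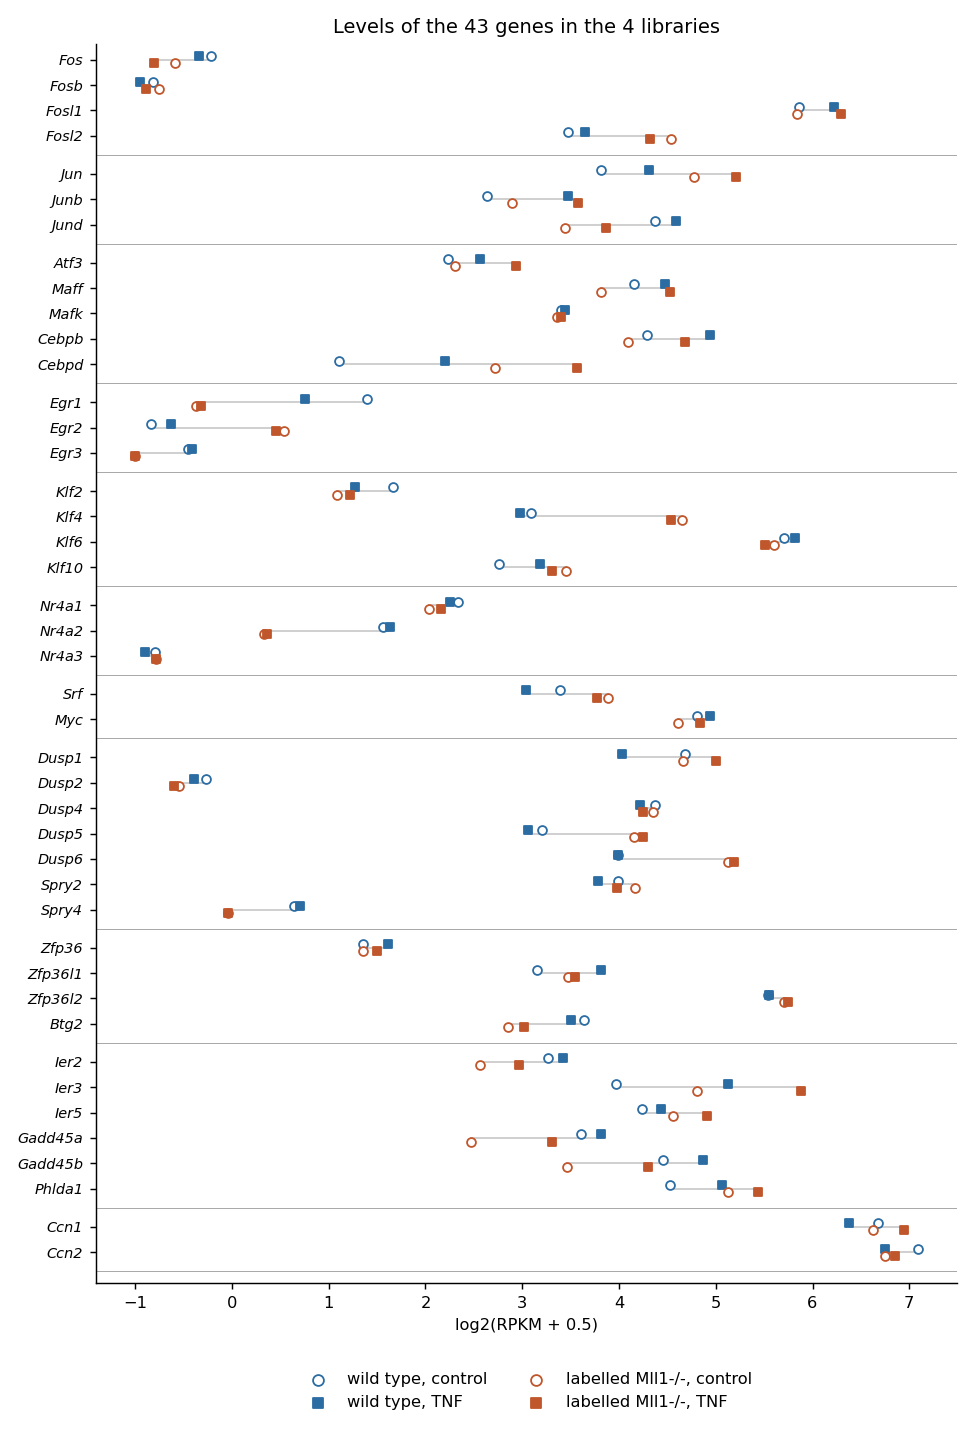
Level of each of the 43 genes in the 4 libraries as log2(RPKM + 0.5), grouped by role, with wild type in blue, cells labelled Mll1-/- in orange, controls as open circles and TNF as filled squares (1 library each). Fos, Fosb, Egr3, Nr4a3 and Dusp2 lie at the floor, Ccn1, Ccn2, Fosl1, Klf6 and Zfp36l2 lie highest, and for Klf4, Dusp6 and Nr4a2 the colours are further apart than the symbols of 1 colour.

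Few of the genes were past the rules used here with TNF at 4 hr, and the survival gene Ier3 and the C/EBP gene Cebpd had the highest ratios in wild type. Ratios were taken on log2(RPKM + 0.5), which understates changes of low genes, and the size rule took a log2 ratio of at least 1 in either direction, a 2-fold difference. In wild type 2 of the 37 members that reached 1 RPKM were past the rule upward, Ier3 and Cebpd, where 0.521% of all genes measured were, and 0 were past it downward (0.0556% of all genes). In the cells labelled Mll1-/- the count was 1 higher, Ier3, and 0 lower, beside 0.688% and 0.16% of all genes. The median log2 ratio of the 37 was 0.14 in both genotypes, against -0.02 in wild type and 0.02 in the cells labelled Mll1-/- over all genes measured. The median size of the ratio, whatever its sign, was 0.25 over the members and 0.10 over all genes in wild type, and 0.18 and 0.17 in the cells labelled Mll1-/-.

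A second, finer rule used whole reads. It counts a gene with at least 10 RPKM in a library whose read ratio is 1.5-fold or more and whose 95% exact binomial (Clopper-Pearson) interval excludes 1. Such a counting interval covers counting error only, because the reads carry no molecular identifiers and cannot be taken as independent molecules, and it does not replace replicates. Of the 30 members at that level, 5 were higher with TNF in wild type (1.38% of all genes at that level) and 1 was lower (0.166%). In the cells labelled Mll1-/- 7 were higher (5.54%) and 0 lower (0.369%). The 4 members higher in both genotypes were Ier3, Cebpd, Junb and Cebpb. Zfp36l1 was counted in wild type alone, and Maff, Gadd45a and Gadd45b in the cells labelled Mll1-/- alone, and the difference between genotypes is given for each with the response differences.

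Ier3, which encodes a small protein that protects cells from TNF-induced death, had the highest ratio of the members on that log2 scale. It was at 15.2 RPKM without and 34.4 with TNF in wild type, and 27.5 without and 58.4 with TNF in the cells labelled Mll1-/-. Both TNF libraries stood above both controls. The read ratio was 2.27-fold in wild type (counting interval 1.94 to 2.66) and 2.13-fold in the cells labelled Mll1-/- (1.85 to 2.45). Its entry has the shortest recovered length of the members, 545 bases against 1131 in GENCODE M21, so its reads are a lower bound. With the length trend removed its log2 ratio was 1.16 in wild type and 0.81 in the cells labelled Mll1-/-, the latter within the size rule. That removal used the 545 bases. If the true length is nearer 1131, the removal may have been too large, so 0.81 does not settle whether Ier3 is past the rule there. Shown here, because Ier3 is the member past the size rule in both genotypes, are 160 bases of its promoter from the RefSeq table (chr17:35821524-35821683, plus strand, GRCm38.p6), with the match to the NF-kB site in capitals.
Ier3: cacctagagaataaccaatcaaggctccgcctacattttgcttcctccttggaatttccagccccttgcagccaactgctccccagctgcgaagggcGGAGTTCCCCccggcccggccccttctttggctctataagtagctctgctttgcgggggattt
The match lies 92 to 83 bases before the start of transcription. A match to that motif on either strand within 250 bases before a start was found for 5 of the 31 members in the RefSeq promoter table (Fos, Fosb, Fosl2, Maff and Ier3) and for 4.46% of the 27025 genes in it. Fos and Fosb were too low to compare, and of the other 3 only Ier3 was past the size rule with TNF. A match is a description of letters and not a measured site. The other 12 members had no entry in the RefSeq promoter table and were not searched for any motif. They are Fosl1, Cebpd, Egr1, Egr3, Klf10, Myc, Dusp4, Spry4, Zfp36l2, Ier2, Phlda1 and Ccn2.

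Both C/EBP genes, leucine zipper factors of the acute-phase and inflammatory response, were higher with TNF. Cebpd was at 1.66 RPKM without and 4.096 with TNF in wild type, and 6.08 without and 11.3 with TNF in the cells labelled Mll1-/-. Each TNF library lay above its control while the control labelled Mll1-/- lay above wild type with TNF. The ratio was 2.47-fold in wild type (counting interval 1.96 to 3.13) and 1.87-fold in the cells labelled Mll1-/- (1.61 to 2.17). Cebpb was at 19.0 RPKM without and 30.1 with TNF in wild type, and 16.6 without and 25.1 with TNF in the cells labelled Mll1-/-, with ratios of 1.59-fold and 1.52-fold, and both TNF libraries exceeded both controls. With the length trend removed the log2 ratio of Cebpb in the cells labelled Mll1-/- went from 0.59 to 0.49.

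Of the 5 Fos and Jun family subunits that reached 1 RPKM, Junb had the highest TNF ratio in both genotypes. Junb, an AP-1 subunit that can restrain Jun, was at 5.73 RPKM without and 10.6 with TNF in wild type, and 6.92 without and 11.4 with TNF in the cells labelled Mll1-/- (1.86-fold, counting interval 1.61 to 2.15, and 1.65-fold, 1.405 to 1.94). Jun was at 13.6 RPKM without and 19.3 with TNF in wild type, and 26.9 without and 36.5 with TNF in the cells labelled Mll1-/-, which is 1.42-fold and 1.36-fold and short of the 1.5-fold rule in both. Jund, the most constant Jun protein in many cells, had log2 ratios of 0.22 and 0.43. Of the Fos family, Fosl1 had log2 ratios of 0.36 and 0.45, and Fosl2 of 0.17 and -0.21. Atf3, a stress-induced repressor of inflammatory genes, was at 4.21 RPKM without and 5.43 with TNF in wild type, and 4.45 without and 7.16 with TNF in the cells labelled Mll1-/-. Maff, a small Maf protein that pairs with other leucine zippers, was at 17.3 RPKM without and 21.8 with TNF in wild type, and 13.5 without and 22.6 with TNF in the cells labelled Mll1-/-. Its ratio was 1.26-fold in wild type and 1.67-fold in the cells labelled Mll1-/-. Its close relative Mafk lay between 9.77 and 10.4 RPKM in all 4 libraries.

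The zinc finger and nuclear receptor factors were not higher with TNF by either rule. Egr1, the founding Egr factor and a classical serum-response gene, was at 2.12 RPKM without and 1.19 with TNF in wild type, and 0.276 without and 0.303 with TNF in the cells labelled Mll1-/-. Its ratio in wild type was 0.559-fold (counting interval 0.434 to 0.716), and in the cells labelled Mll1-/- it rested on 17 and 18 reads. Klf2, which restrains NF-kB activity, was at 2.66 RPKM without and 1.91 with TNF in wild type, and 1.62 without and 1.83 with TNF in the cells labelled Mll1-/-. Klf4, a factor of differentiation and pluripotency, had a log2 ratio of -0.12 in both genotypes. Klf10, a target of TGF-beta signalling, had 0.43 in wild type and -0.14 in the cells labelled Mll1-/-. Nr4a1 was at 4.54 and 4.26 RPKM in wild type and 3.62 and 3.99 in the cells labelled Mll1-/-. The serum response factor gene Srf itself was at 9.97 RPKM without and 7.702 with TNF in wild type, and 14.3 without and 13.2 with TNF in the cells labelled Mll1-/-, a log2 ratio of -0.35 and -0.11.

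The feedback inhibitors of MAP kinase signalling lay near or below their controls in wild type with TNF. Over the 6 of 7 phosphatase and Sprouty genes that reached 1 RPKM the median log2 TNF ratio was -0.14 in wild type and 0.03 in the cells labelled Mll1-/-. Dusp4 and Dusp6, which act on ERK, were at 20.2 and 18.1 and at 15.4 and 15.4 RPKM in wild type. The corresponding values in the cells labelled Mll1-/- were 19.9 and 18.4 for Dusp4 and 34.5 and 36.0 for Dusp6. Spry2 was at 15.3 RPKM without and 13.2 with TNF in wild type, and 17.4 without and 15.3 with TNF in the cells labelled Mll1-/-, the direction of its TNF ratio being downward in both. Spry4 stayed between 0.472 and 1.12 RPKM.

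Of the mRNA decay factors, Zfp36 (tristetraprolin), which targets the mRNA of TNF itself, was low at 2.06 RPKM without and 2.55 with TNF in wild type, and 2.06 without and 2.32 with TNF in the cells labelled Mll1-/-. Counting intervals of its TNF ratio included 1 in both genotypes (0.944 to 1.62 and 0.808 to 1.57). Btg2, an antiproliferative cofactor of mRNA deadenylation, had log2 ratios of -0.14 and 0.17. Ier2, a nuclear regulator, was at 9.13 RPKM without and 10.2 with TNF in wild type, and 5.396 without and 7.29 with TNF in the cells labelled Mll1-/-, and Ier5, which acts with heat shock factor, at 18.4 RPKM without and 21.1 with TNF in wild type, and 23.1 without and 29.5 with TNF in the cells labelled Mll1-/-. The growth-arrest genes Gadd45a and Gadd45b, which activate stress kinases, and Phlda1, a pleckstrin-domain protein, were higher in each TNF library than in its control, and their values follow with the genotype comparison.

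**Figure D2:**
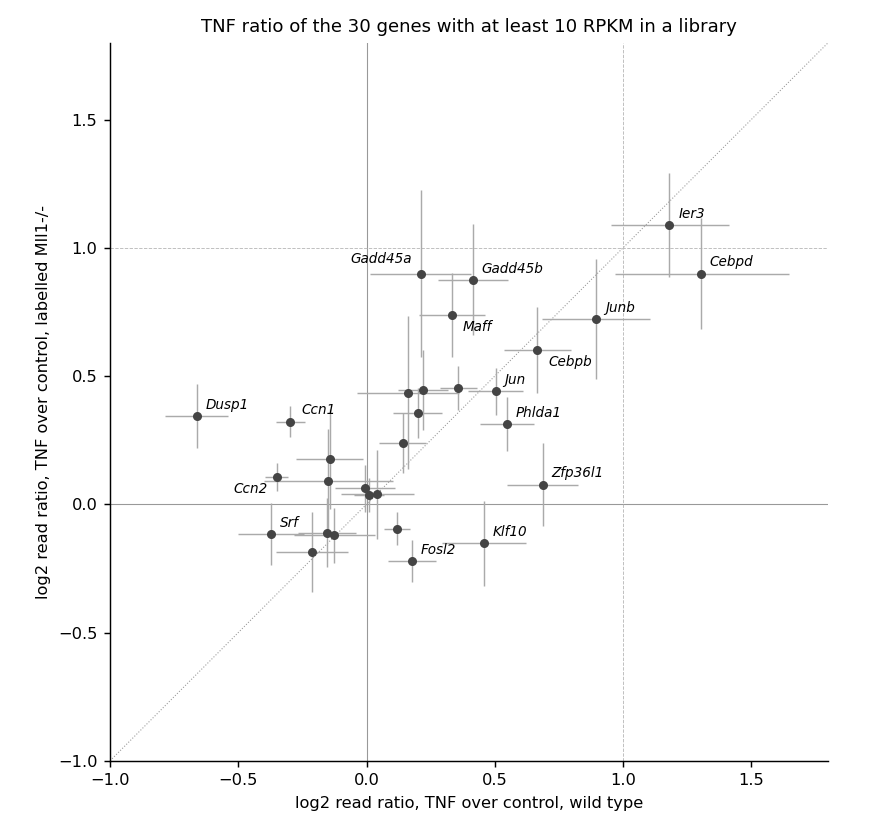
TNF ratio of the 30 genes with at least 10 RPKM in a library, as log2 read ratio in wild type (horizontal) and in cells labelled Mll1-/- (vertical), with 95% counting intervals as bars, the size rule dashed and equality dotted (1 library per group). Ier3, Cebpd, Junb and Cebpb lie at the upper right, Dusp1, Ccn1 and Ccn2 lie left of 0 and above it, and Zfp36l1 and Klf10 lie right of the dotted line.

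For reference, 8 NF-kB feedback genes were placed beside the members. All 8 were past the size rule upward in wild type, with a median log2 ratio of 1.43, and 5 of 8 in the cells labelled Mll1-/- (median 1.08). Over all genes measured the shares were 0.521% and 0.688%. The list was drawn up with earlier results of these data known, so these counts are no independent test. Traf1, an adaptor of TNF receptors, was highest in both genotypes (2.38 and 1.59), and Tnfaip3, the deubiquitinase A20, was lowest in wild type (1.25 and 0.73). Of 30 MAP kinase cascade genes 0 were past the rule with TNF in either genotype (medians 0.04 and -0.05). None of 14 other AP-1 and leucine zipper partners was past it, with Crem highest in both genotypes (0.33 and 0.63). Of 14 other MAP kinase feedback genes 1 was higher in wild type, Lrig1 at 10.9 and 25.1 RPKM, and 0 in the cells labelled Mll1-/- (30.1 and 49.2). Lrig1 lowers the level of growth factor receptors. Spry1, another Sprouty inhibitor, had the lowest log2 ratio of that list in wild type (-0.54).

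For 24 of the 37 members the log2 difference between genotypes without TNF was larger in size than the log2 TNF ratio in wild type. The same count was not made over all genes. The median sizes of these ratios were 0.50 and 0.25 over the members, and 0.40 and 0.10 over all genes measured. The count is therefore not read as a trait of the members. Without TNF, 4 of the 37 were past the size rule upward in the library labelled Mll1-/- (Klf4, Cebpd, Dusp6 and Fosl2), where 7.11% of all genes measured were. Downward there were 3 (Egr1, Nr4a2 and Gadd45a), where 7.99% of all genes were. With TNF the counts were 4 higher (6.71% of all genes) and 2 lower (4.5%). Klf4, Cebpd and Dusp6 were higher, and Egr1 and Nr4a2 lower, in both pairs of libraries, which have no library in common. Egr1 and Nr4a2 reached 1 RPKM only in the wild-type libraries, so they could be counted downward alone. With a filter of at least 3 RPKM in at least 1 library the counts were 4 higher and 1 lower without TNF, and 4 and 0 with TNF. With a pseudocount of 1 RPKM the log2 difference of Nr4a2 without TNF was -0.98 and that of Egr1 with TNF was -0.75, both within the size rule. Egr1 with TNF was also just within it, at -0.9996, when library sums omitted the 20 most abundant genes. The members' counts lie near these backgrounds and are not a result about the members as a set. The read rule gave 9 of 30 members higher and 5 lower without TNF (11.5% and 22.0% of all genes at that level), and 9 higher and 1 lower with TNF (9.33% and 10.1%). In both pairs the 7 higher were Fosl2, Jun, Cebpd, Klf4, Dusp5, Dusp6 and Ier3, and the 1 lower was Jund.

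Klf4 differed by genotype and hardly with TNF. It was at 8.02 RPKM without and 7.35 with TNF in wild type, and 24.6 without and 22.7 with TNF in the cells labelled Mll1-/-. Both libraries labelled Mll1-/- stood above both wild-type libraries, by 3.07-fold without TNF (counting interval 2.803 to 3.37) and 3.08-fold with TNF (2.80 to 3.39). Klf6, in the same family, differed little between genotypes (log2 -0.101 and -0.31). Of 7 other Kruppel-like genes measured, 1 was past the size rule upward without TNF, Klf3 at 1.08, and 0 were past it with TNF. Their medians were 0.41 and 0.15, and Klf5 was the lowest of them (-0.65 and -0.49).

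The phosphatases of ERK, Dusp5 in the nucleus and Dusp6 in the cytoplasm, were also higher in the cells labelled Mll1-/-. Dusp6 was at 15.4 RPKM without and 15.4 with TNF in wild type, and 34.5 without and 36.0 with TNF in the cells labelled Mll1-/-, a gap of 2.24-fold and 2.34-fold. Dusp5 was at 8.71 RPKM without and 7.86 with TNF in wild type, and 17.3 without and 18.5 with TNF in the cells labelled Mll1-/-, with ratios of 1.99-fold (1.704 to 2.33) and 2.35-fold (2.01 to 2.76). For both genes the groups by genotype did not overlap and neither was past either rule with TNF. Dusp4, the other ERK phosphatase of the list, did not separate by genotype (20.2, 18.1, 19.9 and 18.4 RPKM). Spry4, an inhibitor of Ras signalling, ran the other way, with 1.06 and 1.12 RPKM in wild type and 0.475 and 0.472 in the cells labelled Mll1-/-. Among 14 other feedback genes Spry1 had the lowest log2 difference in both pairs (-3.15 and -2.72) and Spred3, a Sprouty-related inhibitor, the highest (1.498 and 1.05). Spry4 and Spry1 reached 1 RPKM only in the wild-type libraries, so each could be counted downward alone.

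Srf binds CArG boxes. The promoters of Srf and Dusp5 are shown because they hold more than 1 match and both genes reached 10 RPKM, while Egr2, with 3 matches of which a pair overlap, stayed under 1 RPKM and is not shown. Srf was higher in the cells labelled Mll1-/-, by 1.43-fold without TNF and 1.71-fold with TNF (counting interval 1.56 to 1.87). The lines give 160 bases before Srf (chr17:46556176-46556335, minus strand) and a 30-base site before Dusp5 (chr19:53529058-53529087, plus strand), both from the RefSeq table on GRCm38.p6, 5′ to 3′ on the gene's strand, with the matches in capitals.
Srf: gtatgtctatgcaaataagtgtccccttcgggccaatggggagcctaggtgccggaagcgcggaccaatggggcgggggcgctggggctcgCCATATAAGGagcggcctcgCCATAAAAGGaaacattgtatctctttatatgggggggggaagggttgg
Dusp5: aatacCCATATTTGGCCTTATATGGgcact
The matches lie 82 to 73 and 62 to 53 bases before the start of Srf, and 82 to 73 and 72 to 63 bases before that of Dusp5, where they touch. Only 30 bases are shown for Dusp5 because an exon annotated in GENCODE M21 begins before the end of its matches. By that annotation the matches of Dusp5 may lie in transcribed sequence. A CArG box match on either strand within 250 bases before a start was found for 4 of the 31 members in the table (Egr2, Srf, Dusp5 and Zfp36) and for 1.62% of all genes in it. These 4 differed among themselves: Egr2, Srf and Dusp5 had higher read ratios in the cells labelled Mll1-/- in both pairs, and Zfp36 had log2 differences of -0.002 and -0.11. Of 10 cytoskeletal SRF target genes measured, 1 was past the size rule upward without TNF and 3 with TNF, with medians of 0.49 and 0.54. Over all genes measured the shares upward were 7.11% and 6.71%. Fhl1, a LIM-domain protein of muscle and fibroblasts, led them (5.02 and 5.03), and Tagln, a smooth-muscle actin-binding protein, was lowest (-0.25 and -0.56). Fhl1 reached 1 RPKM only in the libraries labelled Mll1-/- and could be counted upward alone. Tagln reached 1 RPKM only in wild type with TNF. The counts are therefore not read as a result about the list. The 5 SRF cofactor genes held none past the rule, and their median without TNF was 0.46, or 0.11 with the length trend removed.

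AP-1 subunits differed in opposite directions. Jun was higher in the cells labelled Mll1-/- by 1.98-fold without TNF (counting interval 1.84 to 2.13) and 1.896-fold with TNF (1.78 to 2.02). Jund was at 20.2 RPKM without and 23.5 with TNF in wild type, and 10.3 without and 14.1 with TNF in the cells labelled Mll1-/-, which is 1.95-fold and 1.67-fold lower. Fosl2 (Fra-2) was at 10.6 RPKM without and 12.02 with TNF in wild type, and 22.8 without and 19.5 with TNF in the cells labelled Mll1-/-, 2.14-fold and 1.63-fold higher, and with the length trend removed its log2 differences were 0.78 and 0.61. Junb and Fosl1 differed by less than 1.5-fold in both pairs. Cebpd was 3.66-fold higher without TNF (counting interval 2.91 to 4.64) and 2.77-fold higher with TNF (2.38 to 3.23), while Cebpb was slightly lower (log2 -0.19 and -0.26). Among the 14 AP-1 and leucine zipper partners, Atf5 (-1.796 and -1.34) and the Jun dimerization protein gene Jdp2 (-1.23 and -1.21) were lower past the rule in both pairs, and Creb3, a factor of the endoplasmic reticulum membrane, was higher (1.03 and 1.17).

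The Egr genes were low and divergent. Egr1 had 181 and 102 reads in the wild-type libraries and 17 and 18 in those labelled Mll1-/-, so that it was 7.71-fold lower without TNF (counting interval 4.68 to 13.5) and 3.91-fold lower with TNF (2.35 to 6.86). Egr2, a factor of Schwann cells and lymphocytes, ran the other way with 5 and 12 reads against 57 and 50, 15.7-fold higher without TNF (6.37 to 50.3) and 6.04-fold with TNF (3.17 to 12.5), at levels that stayed under 1 RPKM. Egr3 had 9 and 10 reads in wild type and 0 in both libraries labelled Mll1-/-. With 0 taken as up to 3 reads in a library, it was at least 2.17-fold lower without TNF and at least 2.3-fold lower with TNF. These bounds leave out the counting error of the wild-type reads, and the counting intervals of the ratios reach down to 1.43-fold and 1.55-fold lower. Nr4a2, an orphan nuclear receptor known from dopamine neurons, was at 2.46 RPKM without and 2.61 with TNF in wild type, and 0.757 without and 0.787 with TNF in the cells labelled Mll1-/-, 3.24-fold and 3.32-fold lower. Nr4a1, by contrast, differed by log2 -0.29 and -0.09.

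The growth-arrest and early response genes divided as well. Gadd45a was at 11.7 RPKM without and 13.6 with TNF in wild type, and 5.04 without and 9.39 with TNF in the cells labelled Mll1-/-. Gadd45b was at 21.5 RPKM without and 28.6 with TNF in wild type, and 10.5 without and 19.2 with TNF in the cells labelled Mll1-/-. For both genes the control labelled Mll1-/- was the lowest library, 2.32-fold below the wild-type control for Gadd45a (counting interval 1.896 to 2.87) and 2.05-fold below it for Gadd45b (1.78 to 2.36). With TNF the gaps were 1.45-fold and 1.49-fold. The third gene of the family, Gadd45g, which was taken from the list of relatives, was at 23.3 RPKM without and 12.8 with TNF in wild type, and 8.11 without and 12.9 with TNF in the cells labelled Mll1-/-. Ier2 was 1.69-fold lower without TNF in the library labelled Mll1-/- and Btg2 was 1.78-fold lower (11.97 and 10.8 RPKM in wild type, 6.72 and 7.59 in the others). Ier3 (1.81-fold and 1.701-fold) and Phlda1 (1.53-fold and 1.304-fold) were higher in the cells labelled Mll1-/-. Phlda1 itself was at 22.5 RPKM without and 32.9 with TNF in wild type, and 34.5 without and 42.9 with TNF in the cells labelled Mll1-/-. Removing the length trend took the log2 difference without TNF from -1.14 to -0.93 for Gadd45a, within the size rule. It went from -0.999 to -0.81 for Gadd45b, from -0.71 to -0.56 for Ier2 and from -0.79 to -0.88 for Btg2. For Ier3 it went from 0.84 to 1.23, with the recovered length of 545 bases, and for Phlda1 from 0.61 to 0.67.

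**Figure D3:**
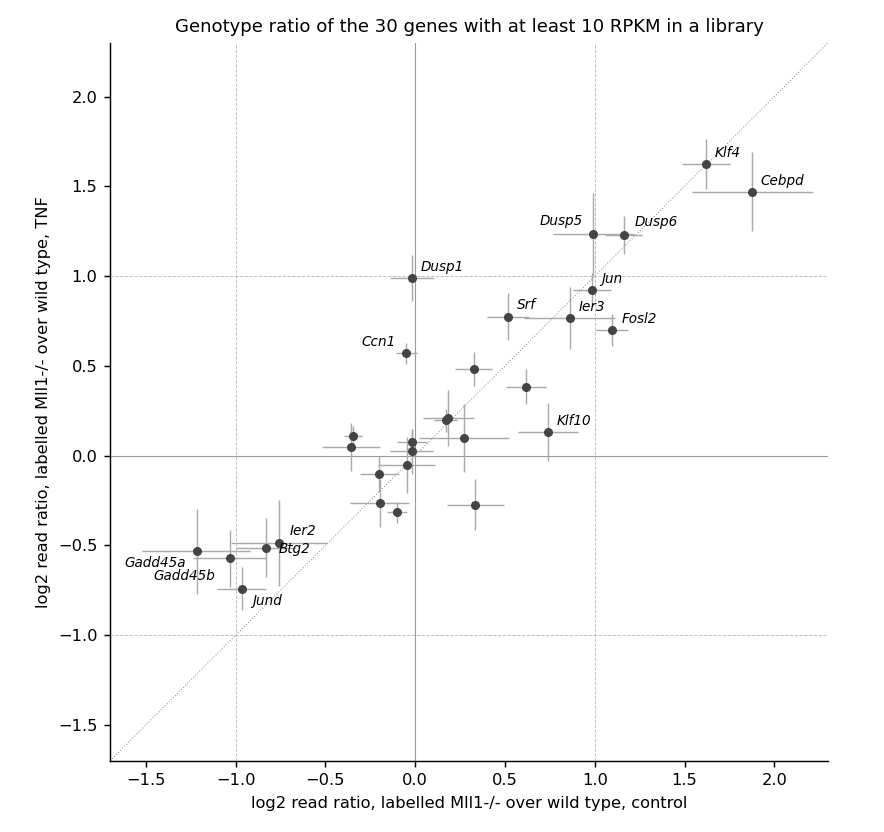
Ratio of cells labelled Mll1-/- to wild type for the 30 genes with at least 10 RPKM in a library, as log2 read ratio between controls (horizontal) and between TNF libraries (vertical), with 95% counting intervals as bars, the size rule dashed and equality dotted. Klf4, Cebpd, Dusp6 and Dusp5 lie at the upper right, Jund, Gadd45a, Gadd45b, Btg2 and Ier2 at the lower left, and Dusp1 and Ccn1 near 0 on the horizontal axis alone.

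Scaling bears on these genotype values. With library sums taken without the 20 most abundant genes, the median of all genes shifted by 0.28 in the comparison without TNF and by 0.10 in that with TNF, and by -0.15 for TNF in the cells labelled Mll1-/-. Under that scaling the log2 difference without TNF was -0.86 for Gadd45a, within the size rule, and 1.25 for Jun, 1.24 for Dusp5 and 1.13 for Ier3, past it.

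The TNF ratio itself differed most between the genotypes for Dusp1, a phosphatase of p38 and JNK that ends their signal. Dusp1 was at 25.1 RPKM without and 15.9 with TNF in wild type, and 24.8 without and 31.5 with TNF in the cells labelled Mll1-/-. The controls of the 2 genotypes lay close together, and TNF went with a lower level in wild type (1.58-fold lower, counting interval 1.45 to 1.73) and a higher one in the cells labelled Mll1-/- (1.27-fold, 1.17 to 1.38). The difference of the log2 ratios was 0.98, just within the size rule, or 1.01 from reads (interval 0.83 to 1.18 by the normal approximation, for counting error only). In all, 0 of 37 members were past the size rule for this difference upward and 0 downward, beside 0.758% and 0.424% of all genes. By reads, with a difference of at least 1.5-fold and an interval that excludes 0, 3 of 30 members were higher (Dusp1, Gadd45a and Ccn1, beside 7.04% of all genes at that level) and 2 were lower (Klf10 and Zfp36l1, beside 1.65%).

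Ccn1 and Ccn2, secreted proteins that bind integrins and are targets of SRF and of YAP with TEAD, had the same order of signs as Dusp1. Ccn1 was at 102 RPKM without and 82.8 with TNF in wild type, and 98.3 without and 123 with TNF in the cells labelled Mll1-/-. Its TNF ratio was 0.814-fold in wild type (counting interval 0.783 to 0.846) and 1.25-fold in the cells labelled Mll1-/- (1.199 to 1.304), a difference of 0.62 in log2 reads (0.54 to 0.70). For Ccn2 the difference was 0.46 (0.39 to 0.53), and its log2 TNF ratio in the cells labelled Mll1-/-, 0.11, was -0.06 when library sums were taken without the 20 most abundant genes. The promoters of Dusp1 and Ccn1 are shown because these 2 genes had TNF ratios on opposite sides of 1 and differed by the read rule, and each holds a motif known to bind a signal-regulated factor. The lines give 160 bases from the RefSeq table on GRCm38.p6 for Dusp1 (chr17:26508520-26508679, minus strand), with the cyclic AMP response element TGACGTCA in capitals, and for Ccn1 (chr3:145649986-145650145, minus strand), with the TEAD motif GGAATG, here on the other strand, in capitals.
Dusp1: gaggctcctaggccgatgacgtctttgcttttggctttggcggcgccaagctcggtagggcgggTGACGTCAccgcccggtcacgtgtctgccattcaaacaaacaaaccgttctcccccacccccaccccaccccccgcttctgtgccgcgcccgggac
Ccn1: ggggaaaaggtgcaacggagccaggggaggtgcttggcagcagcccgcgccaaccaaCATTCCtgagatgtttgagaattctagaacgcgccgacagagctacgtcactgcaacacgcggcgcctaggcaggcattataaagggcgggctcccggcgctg
The element of Dusp1 lies 143 to 136 bases before the start and the motif of Ccn1 lies 103 to 98 bases before it. With both strands searched within 250 bases before a start, TGACGTCA was found for 3 of 31 members (Maff, Dusp1 and Btg2) and 1.77% of all genes in the table, and GGAATG for 4 members (Egr2, Nr4a1, Nr4a3 and Ccn1) and 14.4% of all genes. The AP-1 motif TGANTCA was found for 1 member, Zfp36l1, and for 7.82% of all genes. Of 12 other YAP and TEAD genes measured, 0 were past the size rule with TNF in either genotype, as Ccn1 was not, with medians of -0.10 and -0.08. Over these 12 the difference between genotypes in log2 TNF ratio was above 0 for 6 and below 0 for 6, with a median of -0.01. The list as a set thus had no common direction. Ankrd1, another target of YAP, had the signs of Ccn1, with log2 ratios of -0.13 and 0.37, as had the DNA-binding partner Tead3 (-0.47 and 0.13, at 1.65 to 2.48 RPKM). Tead1, lowest in the difference at -0.50, had the opposite signs (0.11 and -0.39). Fhl2, a LIM-domain target of SRF, was at 22.2 RPKM without and 13.7 with TNF in wild type, and 36.5 without and 43.5 with TNF in the cells labelled Mll1-/-, with the signs of Dusp1. Its difference in log2 TNF ratio (0.93) was the highest of the 10 cytoskeletal SRF target genes measured. Over those 10 the difference was above 0 for 5 and below 0 for 5, with a median of -0.006, so that list had no common direction either.

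Gadd45a and Gadd45b had larger TNF ratios in the cells labelled Mll1-/-, 1.86-fold against 1.16-fold and 1.83-fold against 1.33-fold. Their differences in log2 reads were 0.69 (interval 0.31 to 1.06) and 0.46 (0.21 to 0.71). For Maff the difference was 0.40 (0.20 to 0.61). Gadd45a and Gadd45b were lowest in the control labelled Mll1-/-, a library that their genotype and TNF ratios share, and the gain in level was 8.76 RPKM there and 7.15 RPKM in wild type for Gadd45b, and 4.35 and 1.85 RPKM for Gadd45a. Their transcripts are short, and with the length trend removed the differences were 0.45 and 0.27.

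Zfp36l1 and Klf10 had the smaller TNF ratios in the cells labelled Mll1-/-. Zfp36l1, which directs mRNA decay as Zfp36 does, was at 8.41 RPKM without and 13.5 with TNF in wild type, and 10.6 without and 11.2 with TNF in the cells labelled Mll1-/-. Wild type with TNF was thus the highest library, 1.61-fold above its control (counting interval 1.46 to 1.77), while the pair labelled Mll1-/- differed by 1.05-fold (0.944 to 1.18). The difference was -0.61 in log2 reads (-0.82 to -0.40). Klf10 was at 6.25 RPKM without and 8.58 with TNF in wild type, and 10.4 without and 9.39 with TNF in the cells labelled Mll1-/-, 1.37-fold against 0.900-fold, a difference of -0.61 (-0.84 to -0.38). The wild-type control was its lowest library and the control labelled Mll1-/- its highest. For Zfp36l1 and Klf10 the difference was -0.54 and -0.52 once the length trend was removed. Of 13 mRNA decay partners of Zfp36, such as the subunits of the CCR4-NOT deadenylase, 0 were past the size rule with TNF or between genotypes. Their median log2 TNF ratios were 0.04 and -0.14, with Dcp2, a decapping enzyme, highest in wild type (0.28) and the deadenylase subunit Cnot8 highest in the cells labelled Mll1-/- (0.28).

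For the 4 genes that the read rule counted as higher with TNF in both genotypes, the intervals of the difference between genotypes included 0 or ended near it. The difference was -0.09 for Ier3 (-0.39 to 0.21), -0.17 for Junb (-0.48 to 0.14), -0.06 for Cebpb (-0.27 to 0.14) and -0.40 for Cebpd (-0.79 to -0.01), all in log2 reads. The first 3 do not show that the responses were equal, only that counting error alone could give a difference of that size. All 8 NF-kB feedback genes, by comparison, had the smaller log2 ratio in the cells labelled Mll1-/-, with a median difference of -0.55. That list was chosen with earlier results of these data known, so its direction is no independent yardstick.

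**Figure D4:**
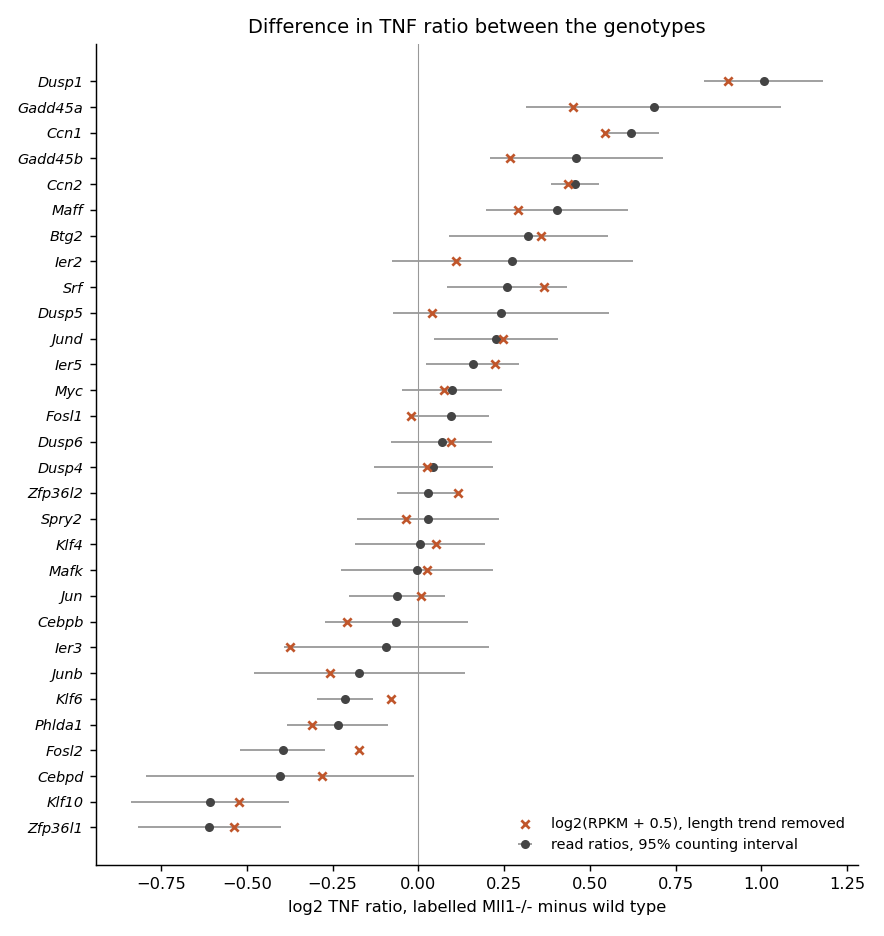
Difference of the log2 TNF ratio, cells labelled Mll1-/- minus wild type, for the 30 genes with at least 10 RPKM in a library, with read ratios as dots, 95% counting intervals as bars, and the value with the length trend removed as crosses. Dusp1 is highest at 1.01, followed by Gadd45a and Ccn1, Zfp36l1 and Klf10 are lowest, and the crosses of Gadd45a, Gadd45b, Ier3 and Fosl2 lie apart from their dots. The cross of Ier3 uses its recovered length of 545 bases, which may be too short.

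**Figure D5:**
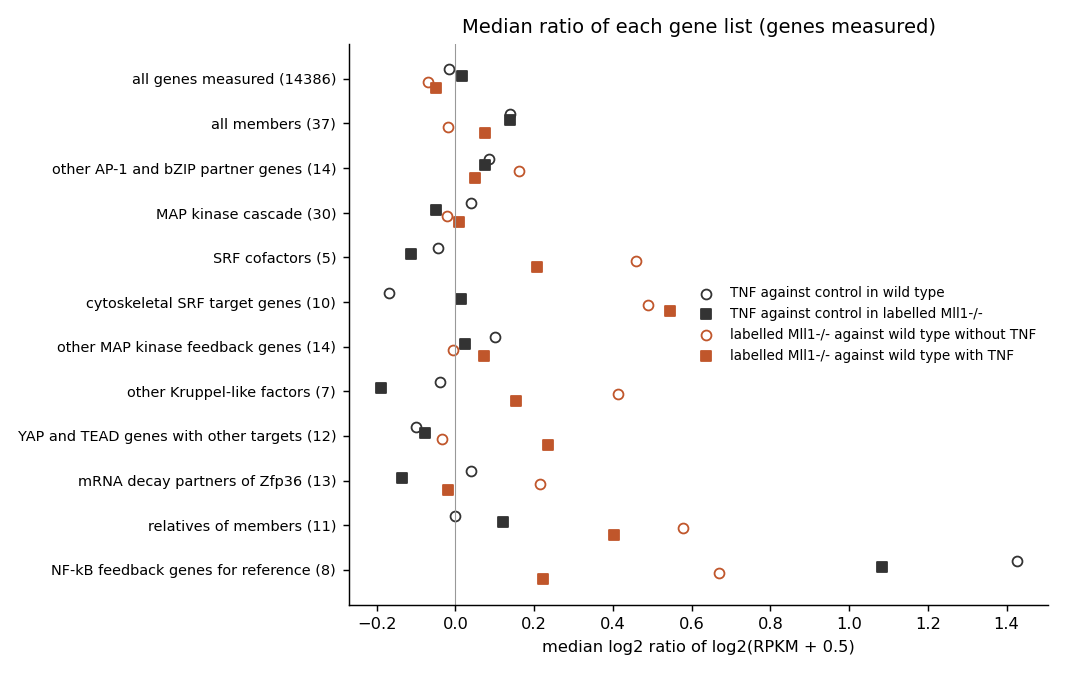
Median log2 ratio, on log2(RPKM + 0.5), of the 37 members measured, of 10 reference lists and of all 14386 genes measured, with TNF comparisons in black and genotype comparisons in orange. The members' medians lie within 0.2 of 0 in all 4 comparisons, and the NF-kB feedback list lies furthest right with TNF at 1.43 and 1.08.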

How the data were processed

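Messenger RNA of 4 MEF libraries was sequenced, 1 library for each genotype and treatment, and each library mixed the cells of 3 treatments, per the labels. The deposited values are RPKM, made by the authors for 27344 transcript entries in each library, per the file headers. The submitters' processing notes name TopHat and DESeq with no version or role. Build, annotation and counting program: not given in the sources used here. Strand is not mentioned, so antisense genes cannot be separated.

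The steps between RPKM values gave whole reads for 100% of entries (within 0.0001 reads) and the library totals. Reads summed over entries came to 1.631 to 1.726 times those totals, and recovered reads are a lower bound where the recovered length is short. Through their transcript accessions 20849 entries were named by the RefSeq table and 102 by GENCODE, and 6393 stayed unnamed. Genes with at least 1 RPKM in a library were compared on log2(RPKM + 0.5), and those with at least 10 RPKM also by read ratios. The length trend was a lowess fit of the log2 ratio on the log2 of the recovered transcript length over all genes (span 0.3). With 1 library a group no test between conditions was possible. Alternatives were other pseudocounts, filters, scalings, removal of the length trend, means over entries, and read ratios. The calculation was tested on simulated data.

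All members are described, with ratios for those past either rule. Of each of 10 reference lists the counts, the median and up to 4 genes are named (the 2 highest and the 2 lowest). The members, lists and motifs were chosen with earlier results of these data known. Python 3.11.15, pandas 2.3.3, numpy 2.4.6, scipy 1.17.1, statsmodels 0.14.6 and matplotlib 3.10.9 were used.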

Additional observations from a re-analysis of the deposited data

Results flagged for a closer look

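For 5 members the TNF ratio lay on opposite sides of 1 in the 2 genotypes and both counting intervals excluded 1. The same count was not made over all genes, so whether 5 is unusual cannot be told. Where reads are many such intervals exclude 1 for small shifts, as for Klf6 (1.09-fold in wild type and 0.936-fold in the cells labelled Mll1-/-). The difference in log2 TNF ratio, cells labelled Mll1-/- minus wild type, was 0.98 for Dusp1, 0.62 for Ccn1 and 0.45 for Ccn2, all lower with TNF in wild type and higher in the cells labelled Mll1-/-. It was -0.38 for Fosl2 and -0.21 for Klf6, which ran the other way. With the length trend removed the log2 TNF ratio in the cells labelled Mll1-/- was -0.03 for Fosl2 and 0.03 for Klf6, and the differences were -0.17 and -0.08, so that Klf6 no longer had opposite signs and Fosl2 lay near 0 in those cells. With 1 library a group the difference between genotypes was not tested beyond counting error.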

How the results depend on the processing

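No paired analysis was possible because each group is 1 library. Of 580 member ratios recomputed under 10 alternatives, 537 moved little, 41 moved and 2 changed sign. Moved little means a shift no larger than the error allowed by the gene's own counting interval, which is wide where reads are few. The filter alternatives leave every ratio as it was, and means over entries cannot move the 41 members with 1 entry. The 537 thus overstate how stable the ratios are. The sign changes were Klf6 with TNF in the cells labelled Mll1-/-, at 0.0252 with the length trend removed, and Ccn2 in the same comparison, at -0.0574 without the 20 most abundant genes in the library sums. The cause was not tested. Members past the size rule with TNF in wild type numbered 1 with a pseudocount of 1 RPKM in place of 2. In the cells labelled Mll1-/- they numbered 0 in place of 1 with upper-quartile scaling, with library sums that omit the 20 most abundant genes, and with the length trend removed. The last of these used the recovered length of Ier3, 545 bases, which may be too short. For the difference in TNF ratio they numbered 1 (Dusp1) in place of 0 with a pseudocount of 0.1 RPKM and by read ratios. Between genotypes they numbered 5 to 9 without TNF (7 as reported) and 4 to 7 with TNF (6 as reported). Depth limits Fos, Fosb, Egr2, Egr3, Nr4a3 and Dusp2, which stayed under 1 RPKM.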

Other observations

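Relatives of the members outside the 43 genes held some of the larger genotype values. Of 11 measured, 2 were past the size rule upward and 1 downward (Gadd45g, log2 -1.47) in the cells labelled Mll1-/- without TNF, and 3 and 0 with TNF, with medians of 0.58 and 0.404. Phlda2 and Ccn3 reached 1 RPKM only in the libraries labelled Mll1-/- and could be counted upward alone, so the counts support nothing about the list. Phlda2, an imprinted relative of Phlda1, was listed at 0 RPKM in both wild-type libraries and was at 0.676 RPKM without and 1.69 with TNF in the cells labelled Mll1-/-. Ccn3, a matricellular relative of Ccn1, had log2 differences of 1.73 and 1.73. Gadd45g was the 1 relative past the rule for the difference in TNF ratio (1.48), and Ccn5, also of the Ccn family, was next (0.99).

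Among 30 MAP kinase cascade genes 2 were past the size rule upward in the cells labelled Mll1-/- both without and with TNF, and 0 and 2 downward. Over all genes measured the shares were 7.11% and 6.71% upward, and 7.99% and 4.5% downward. The 2 upward, Rps6ka1 and Map3k5, reached 1 RPKM only in the libraries labelled Mll1-/- and could be counted upward alone. The counts therefore support nothing about the list. Rps6ka1, a kinase that acts after ERK, had log2 differences of 2.02 and 2.06. Map3k5 (ASK1), a kinase of the stress branch, had 2.34 and 1.65. Map2k6, which activates p38, had -0.24 and -1.13.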
